A study of Mus musculus with 16 samples.

Results

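The genes described here are 40 mouse genes that act in DNA replication (S phase) or in mitosis, chosen by name and found as the rows of the deposited count table whose Ensembl identifier maps to their symbols. They make up 40 of the 38924 rows of that table. The libraries are bulk RNA-seq of brown fat taken between the shoulder blades (the interscapular depot), which burns fuel to make heat, from C57BL/6J mice. There were 4 libraries in each of 4 groups: brown-fat-specific Akt2 knockouts (KO) at 22 °C, wild-type littermates (WT) at 22 °C, KO at 30 °C and WT at 30 °C. The KO was made with UCP1-CreER, a tamoxifen-inducible Cre recombinase driven by a promoter that is active in brown adipocytes, so other cells of the depot are not its target. The labels do not say whether WT mice carried the Cre or whether tamoxifen was given to both genotypes. Mice of every group were kept at their temperature for 4 weeks, between 9 and 13 weeks of age. The 30 °C setting is labelled thermoneutral. The study asked how brown fat adapts to ambient temperature with and without AKT2, a kinase downstream of the insulin receptor.

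A dividing cell first loads the MCM helicase onto DNA, then copies the genome with a machinery that includes the sliding clamp PCNA and needs deoxynucleotides from ribonucleotide reductase. It later condenses and separates its chromosomes with the help of topoisomerase II alpha, kinesin motors, the kinases CDK1, PLK1 and Aurora, and a spindle checkpoint. Many mitotic genes are transcribed only late in the cycle, through promoters that hold a cell cycle homology region (CHR) and CCAAT boxes, whereas many S-phase genes are controlled by E2F factors. In brown fat, mature adipocytes are thought to divide little, and precursors, endothelial cells and immune cells contribute to cell renewal.

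Library totals ranged from 12751528 to 23866743 counts. The target gene Akt2 was at 56.2 to 89.3 counts-per-million (CPM) in the 8 KO libraries and at 192 to 261 CPM in the 8 WT libraries. CPM values are scaled to the library size after trimmed-mean (TMM) scaling. The 11 brown adipocyte markers were above 0 in every group and took 18290 to 34460 raw CPM (counts-per-million of a library with no such scaling). In 4 libraries, KO at 22 °C number 1, KO at 30 °C numbers 1 and 2 and WT at 30 °C number 2, skeletal muscle markers took between 0.124% and 0.670% of the counts, above the 0.1% limit used to set such libraries apart. No label names the animal behind a library, so the p-values reflect the scatter among these numbered samples and no more.

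Promoter sequences were at hand for 34 of the 40 genes, from RefSeq on GRCm38.p6, as windows of 300 bases with 250 before the annotated start. Those of Ccna2, Mcm4, Tpx2, Aurkb, Ccne2 and Kif20a were not used here. The motifs searched on both strands were the CHR letters TTTGAA, the CCAAT box CCAAT, and the E2F letters TTTGGCGC, TTTCGCGC or TTTCCCGC. The CHR letters were present in 13 of the 17 promoters of genes with mitosis roles (76.5%) and in 2 of the 12 with replication or deoxynucleotide roles (16.7%). Among all 27025 genes of the promoter table, 20.2% held them. The E2F letters stood in 5 of the 12 replication promoters (41.7%) and in 0 of the 17 mitosis promoters, against 2.12% of all genes. CCAAT was common in both classes, at 82.4% of mitosis promoters and 75.0% of replication promoters, against 41.1% of all genes. A match is a description of the letters and does not show that a factor binds there.

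The promoter stretches below show the CHR and CCAAT letters close together around the annotated start of mitosis genes that were lower at 22 °C. Capitals mark the motif letters on either strand, so TTCAAA is the CHR and ATTGG the CCAAT box read from the other strand. Top2a is from chr11:99024170-99024249 on the minus strand, Kif11 from chr19:37376322-37376401 on the plus strand, Cdc20 from chr4:118437324-118437403 on the minus strand and Spag5 from chr11:78301551-78301630 on the plus strand, each printed in the direction of the gene.
Top2a: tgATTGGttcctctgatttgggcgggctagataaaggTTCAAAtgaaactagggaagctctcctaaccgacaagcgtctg
Kif11: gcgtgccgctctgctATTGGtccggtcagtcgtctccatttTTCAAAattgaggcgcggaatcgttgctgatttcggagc
Cdc20: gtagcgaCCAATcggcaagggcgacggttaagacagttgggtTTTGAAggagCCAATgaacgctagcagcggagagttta
Spag5: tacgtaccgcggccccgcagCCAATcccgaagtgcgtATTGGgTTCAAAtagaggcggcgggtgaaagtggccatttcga
In these 4 stretches a CCAAT box lies upstream of the CHR letters and both sit near the gene's start. The CHR letters of Spag5 lie just after it.

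The next stretches show promoters with E2F letters. Cdk1 (chr10:69352913-69353052, minus strand) holds all 3 motifs, whereas Mcm5 (chr8:75109349-75109448, plus strand) and Mcm6 (chr1:128359736-128359825, minus strand) hold E2F letters with a CCAAT box and no CHR.
Cdk1: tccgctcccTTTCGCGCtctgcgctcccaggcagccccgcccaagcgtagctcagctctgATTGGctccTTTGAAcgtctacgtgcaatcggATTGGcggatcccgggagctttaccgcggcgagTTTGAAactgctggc
Mcm5: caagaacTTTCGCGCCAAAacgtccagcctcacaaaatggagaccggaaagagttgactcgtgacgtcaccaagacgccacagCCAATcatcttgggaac
Mcm6: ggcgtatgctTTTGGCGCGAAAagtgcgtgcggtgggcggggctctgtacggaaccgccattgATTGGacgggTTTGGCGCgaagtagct
The last pair belongs to genes that were not lower at 22 °C by the test: Cenpa (chr5:30666766-30666915, plus strand), which holds CCAAT and CHR letters, and Rrm1 (chr7:102441595-102441694, plus strand), which holds only CCAAT.
Cenpa: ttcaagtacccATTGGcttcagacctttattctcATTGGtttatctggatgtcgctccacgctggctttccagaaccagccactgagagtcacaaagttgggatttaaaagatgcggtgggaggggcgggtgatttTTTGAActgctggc
Rrm1: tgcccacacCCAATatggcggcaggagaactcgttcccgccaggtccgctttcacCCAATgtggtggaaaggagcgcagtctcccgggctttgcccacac
Cenpa carries the same letters as the mitosis genes shown above.

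Most of the 40 genes were lower in brown fat at 22 °C than at 30 °C, in both genotypes. In KO, 26 of the 39 genes that could be tested were lower at 22 °C, where 13.0% of all 14103 genes tested were lower. In WT, 21 were lower at 22 °C, where 17.8% of all genes tested were lower, and 1 gene, Rrm1, was higher, where 20.5% were higher. A gene was called lower or higher when its Benjamini-Hochberg adjusted p over all genes, from edgeR's quasi-likelihood test, was under 0.05. The median log2 fold change (22 °C over 30 °C) over the 39 genes was -1.58 in KO and -0.98 in WT, beside medians over all genes of 0.02 in KO and -0.03 in WT. With a stricter filter on low counts, which tested 28 of the genes, the medians were -0.79 in KO and -0.72 in WT, and in a fit on KO libraries alone, which tested 34, the KO median was -1.10. Scarce genes could pass the filter through the 30 °C libraries, where they were higher. In KO, 0 of the 39 genes were called higher, beside 13.8% of all genes tested, and 0 were higher at an unadjusted p under 0.05. DESeq2 called 0 higher, beside 2084 of all 14103 genes. Limma-voom called 30 lower, beside 21.2% of all genes, and 1 higher, beside 3079 of all 14103. In bulk tissue, fewer cells of a type and less RNA per cell cannot be told apart. The filter on low counts removed Ccnb1 alone. Without that filter 26 of 40 genes were lower in KO, beside 6.21% of all genes, and 22 of 40 in WT, beside 8.97% of all genes.

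Counted without a model, 28 of the 40 genes were lower in every KO library at 22 °C than in every KO library at 30 °C, and 27 of these were among the genes tested, where 15.0% of all tested genes separated in this way. The count of genes higher in every KO library at 22 °C was 0, beside 17.7% of all genes. In WT, 20 of 40 genes were lower in every library at 22 °C, 19 of them tested, beside 16.9% of all genes tested, and Rrm1 was higher in every library, beside 18.4%. The summed raw counts of the 40 genes had medians of 128 and 125 raw CPM at 22 °C in KO and WT, and of 205 and 209 raw CPM at 30 °C in KO and WT. The sums did not overlap between temperatures: the highest library at 22 °C had 140.7 raw CPM and the lowest at 30 °C had 175.5. The TMM factors, which raw CPM leaves out, were 0.851 to 0.999 at 22 °C and 1.03 to 1.10 at 30 °C. TMM scaling would therefore narrow this gap. The heat map of all 40 genes by library, in TMM-scaled CPM, shows the same division between temperatures.

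**Figure D1:**
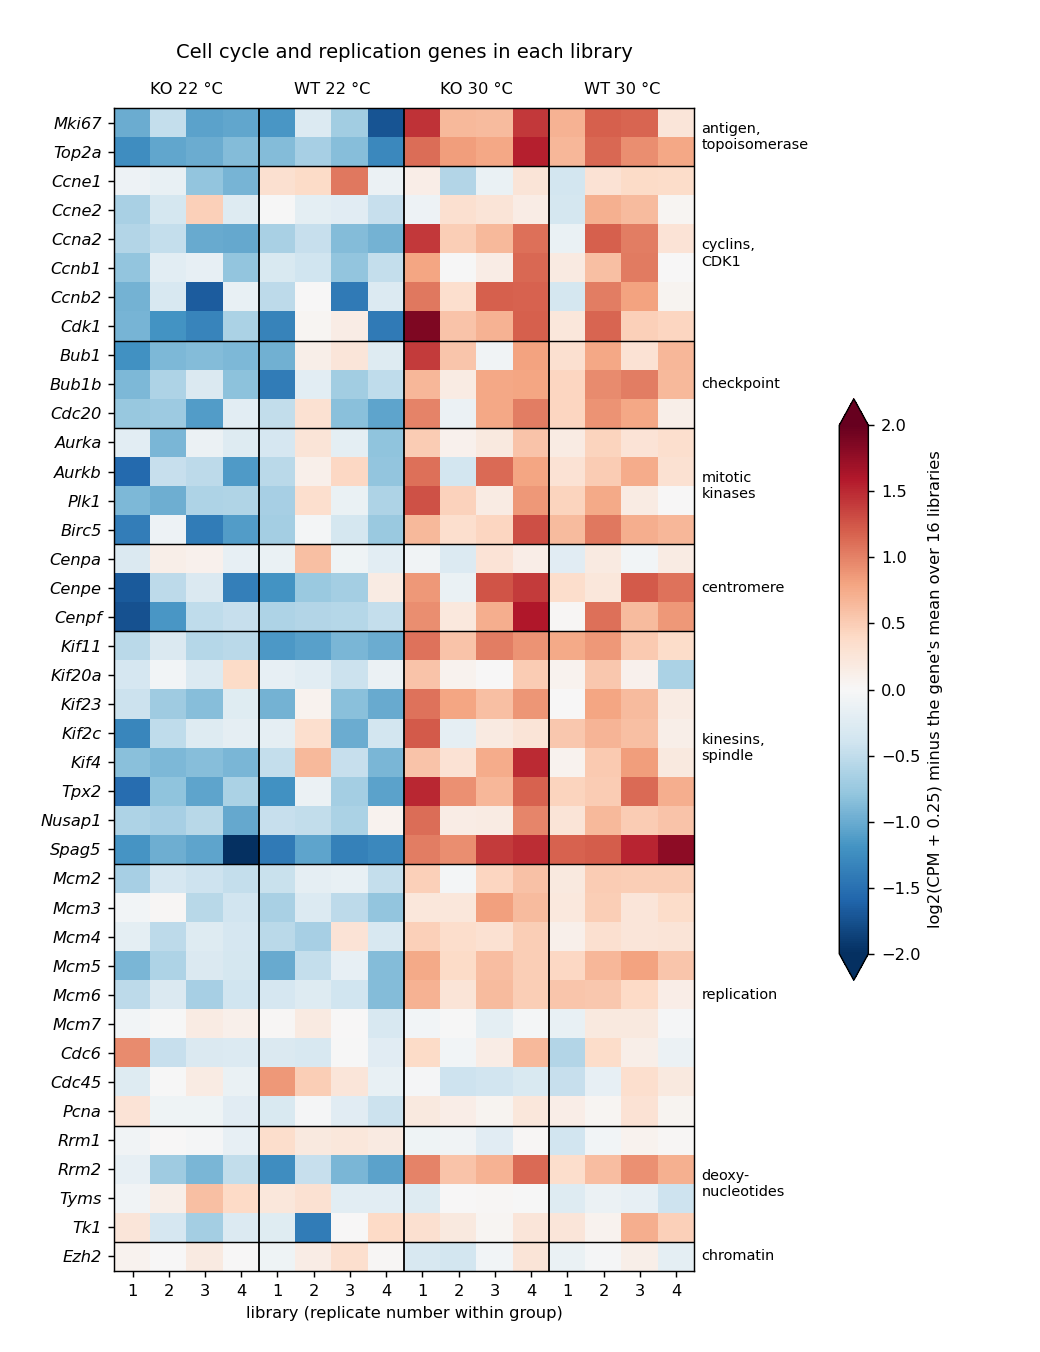
Level of each of the 40 genes (rows, grouped by role) in each of the 16 libraries (columns, grouped by genotype and temperature), as log2(CPM + 0.25) minus the mean of the gene over all 16 libraries. The 8 libraries at 22 °C are mostly blue (below the gene's mean) and the 8 at 30 °C mostly red, except in rows such as Cenpa, Mcm7, Cdc45, Rrm1, Tyms and Ezh2.

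Mki67 and Top2a are widely used tissue markers of dividing cells. Mki67 (chromosome 7, 135689784 to 135716361, minus strand, GENCODE annotation of GRCm38) encodes the Ki-67 antigen that coats mitotic chromosomes. Its level was 1.43, 2.14, 1.34 and 1.37 CPM in KO libraries at 22 °C, against 8.83, 4.96, 4.91 and 8.61 CPM in KO libraries at 30 °C. In WT it was 1.23, 2.50, 1.81 and 0.755 CPM at 22 °C, against 5.17, 7.39, 7.20 and 3.69 CPM at 30 °C. The temperatures did not overlap in either genotype, and the KO libraries at 30 °C fell into a higher and a lower pair. The log2 fold change was -2.12 in KO (SE 0.342, adjusted p = 0.000483) and -1.91 in WT (SE 0.342, adjusted p = 0.000467).

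Top2a (chromosome 11, 98992943 to 99024189, minus strand) encodes topoisomerase II alpha, which untangles sister chromatids. It had 1.09, 1.29, 1.34 and 1.49 CPM in KO at 22 °C, against 6.57, 5.38, 5.13 and 8.99 CPM in KO at 30 °C. WT libraries had 1.48, 1.75, 1.5 and 1.05 CPM at 22 °C, against 4.75, 6.71, 5.76 and 5.14 CPM at 30 °C. Every library at 30 °C was above every library at 22 °C. The log2 fold change was -2.32 in KO (SE 0.216, adjusted p = 8.62e-06) and -1.96 in WT (SE 0.213, adjusted p = 7.03e-06), with smaller errors than those of Mki67.

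Of the 5 cyclin and Cdk1 genes tested, 3 were lower at 22 °C in KO and 2 in WT, beside 13.0% and 17.8% of all genes tested in KO and WT. The KO count includes Ccnb2, whose call ended when the counts of its processed copy were added (adjusted p = 0.160). Ccna2 (cyclin A2, which drives S phase and entry into mitosis) was at 0.885, 0.979, 0.601 and 0.594 CPM in KO at 22 °C, against 4.31, 2.15, 2.42 and 3.43 CPM in KO at 30 °C. In WT it was at 0.837, 0.987, 0.688 and 0.639 CPM at 22 °C, against 1.31, 3.67, 3.23 and 1.81 CPM at 30 °C. The temperatures did not overlap, and the log2 fold change was -1.998 in KO (adjusted p = 0.000749) and -1.67 in WT (adjusted p = 0.00130). Ccna2 shares 510 of its 4083 exon bases with Exosc9 on the opposite strand, which held 3888 counts against 464. Exosc9 had -0.20 in KO and 0.20 in WT, and what it adds to the Ccna2 count was not tested. Cdk1, the kinase that cyclins A and B activate, had a log2 fold change of -2.84 in KO (SE 0.539, adjusted p = 0.00149) and of -1.42 in WT (SE 0.509, adjusted p = 0.0372). Its WT libraries at 22 °C were uneven, at 0.197, 0.911, 1.00 and 0.174 CPM, against 1.07, 2.29, 1.32 and 1.27 CPM at 30 °C. In WT the Cdk1 call was lost in 5 of the 16 fits that left out a library (WT at 22 °C number 1 or 4, WT at 30 °C number 2, 3 or 4). It was also lost in a fit on WT libraries alone (adjusted p = 0.0538) and without the 4 libraries with skeletal muscle counts (adjusted p = 0.111), with adjusted p over all alternatives between 0.0157 and 0.127.

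The mitotic cyclins B were scarce. Ccnb1 had 4 counts in all KO libraries at 22 °C and 26 at 30 °C, and 4 counts in all WT libraries at 22 °C and 25 at 30 °C. The ratio of 22 °C to 30 °C per count sequenced was 0.143 in KO (exact 95% interval 0.0363 to 0.413, counting error only) and 0.134 in WT (0.0340 to 0.389). Ccnb2 fell in KO (log2 fold change -2.12, adjusted p = 0.0102) and had -1.28 in WT (adjusted p = 0.0720). Its processed copy Ccnb2-ps held 468 counts over the 16 libraries, against 242 for Ccnb2 itself, and adding them ended the KO call, at a log2 fold change of -0.47 (adjusted p = 0.160). Whether Ccnb2 and its copy share reads was not tested, and the value of Ccnb2 is uncertain.

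The cyclins E, which act earlier, at the start of S phase, were not called for temperature in either genotype. Ccne1 had a log2 fold change of -0.46 in KO (95% interval -1.15 to 0.23) and of 0.30 in WT (-0.36 to 0.96). For Ccne2 it was -0.33 in KO (-0.92 to 0.26) and -0.57 in WT (-1.16 to 0.02). Ccne2 shares 609 of its 3495 exon bases with Ints8 on the opposite strand, which held 5282 counts against 765. Ints8 had 0.08 in KO and 0.04 in WT, and what it adds to the Ccne2 count was not tested.

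Of the 3 spindle checkpoint and anaphase genes, 3 were lower at 22 °C in KO and 2 in WT, beside 13.0% and 17.8% of all genes tested. Bub1b (BubR1, a checkpoint component that restrains anaphase) was at 1.23, 1.53, 2.00 and 1.31 CPM in KO at 22 °C, against 4.10, 2.81, 4.45 and 4.47 CPM in KO at 30 °C. WT libraries were at 0.788, 2.12, 1.44 and 1.69 CPM at 22 °C, against 3.45, 5.04, 5.36 and 4.05 CPM at 30 °C. Neither genotype overlapped between temperatures, and the log2 fold change was -1.38 in KO (adjusted p = 0.00194) and -1.58 in WT (adjusted p = 0.000343). Cdc20, the activator of the anaphase-promoting complex, fell by 1.79 in KO (adjusted p = 0.00677) and by 1.31 in WT (adjusted p = 0.0218) on the log2 scale. Cdc20 shares 53 of its 1868 exon bases with Elovl1 on the opposite strand, which held 4354 counts against 264. Elovl1 had -0.34 in KO and -0.53 in WT, and what it adds to the Cdc20 count was not tested. The WT call of Cdc20 was lost without WT at 22 °C number 1, 3 or 4 or WT at 30 °C number 2 or 3, and without the 4 libraries with skeletal muscle counts (adjusted p = 0.0588), with adjusted p between 0.00346 and 0.0692 and a log2 fold change between -1.80 and -1.08 over all alternatives. The checkpoint kinase gene Bub1 was almost absent from KO at 22 °C, with 3 counts over the 4 libraries against 46 in KO at 30 °C, a ratio of 0.0607 (exact 95% interval 0.0121 to 0.189, counting error only). It was called lower in KO (adjusted p = 0.000983) and had 17 counts at 22 °C against 40 at 30 °C in WT, a ratio of 0.357 (0.190 to 0.643), without a call (adjusted p = 0.0985).

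Of the 4 genes for mitotic kinases and survivin, 4 were called lower in KO and 1 in WT, beside 13.0% and 17.8% of all genes tested, and the interaction test, given below, called none of them. Plk1 (polo-like kinase 1) was at 0.340, 0.306, 0.468 and 0.475 CPM in KO at 22 °C, against 2.402, 1.25, 0.982 and 1.74 CPM in KO at 30 °C, with no overlap. In WT it was at 0.443, 1.14, 0.750 and 0.465 CPM at 22 °C, against 1.25, 1.60, 0.979 and 0.847 CPM at 30 °C, and the second library at 22 °C was within the range at 30 °C. The log2 fold change was -1.99 in KO (SE 0.371, adjusted p = 0.00132) and -0.77 in WT (SE 0.352, adjusted p = 0.0981). Aurkb (Aurora B, of the chromosomal passenger complex) had -2.28 in KO (adjusted p = 0.00476) and -0.80 in WT (adjusted p = 0.195). Aurka (Aurora A, at the spindle poles) had -0.81 in KO (adjusted p = 0.0356) and -0.63 in WT (adjusted p = 0.0740), and its KO call was lost without KO at 22 °C number 2 or 4 or KO at 30 °C number 1, 3 or 4, with no filter on low counts (adjusted p = 0.0705) and without the 4 libraries with skeletal muscle counts (adjusted p = 0.119; between 0.00473 and 0.119, with a log2 fold change between -0.92 and -0.64 over all alternatives). Birc5 (survivin, a partner of Aurora B) fell in both, by 2.12 in KO (adjusted p = 0.00178) and by 1.51 in WT (adjusted p = 0.00676).

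**Figure D2:**
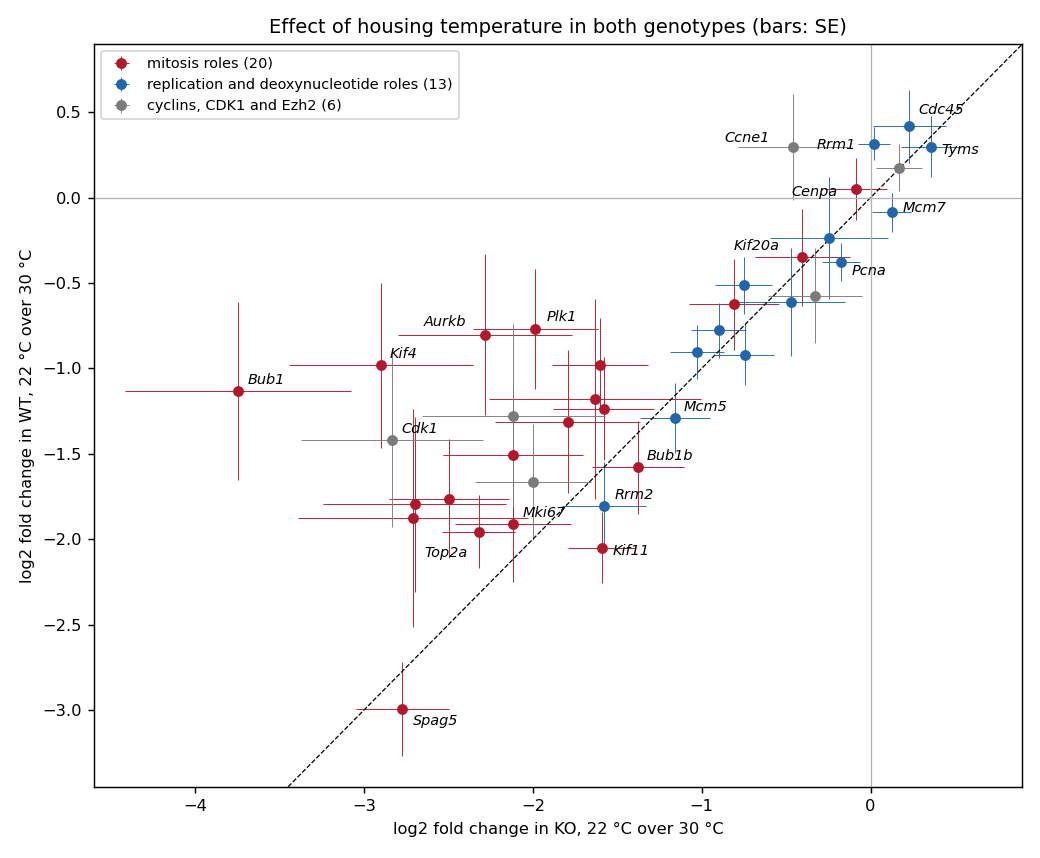
Log2 fold change of 22 °C over 30 °C in KO (horizontal axis) against the same in WT (vertical axis) for the 39 genes tested, with SE bars, coloured by role. The dashed line marks equal values. Spag5 lies lowest in WT (-2.995), Bub1 farthest left in KO (-3.75), and Cdc45, Tyms, Rrm1, Cenpa and Mcm7 lie near 0.

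Across the 39 genes the temperature effects in KO and in WT, which come from separate libraries, had a Pearson r of 0.794 and a Spearman rho of 0.809, given as a description since genes of one process are not independent. The effect was below 0 for 34 genes in KO and for 33 in WT. Called lower in both genotypes were 20 genes. Another 6 (Aurka, Aurkb, Bub1, Ccnb2, Kif4 and Plk1) were called lower in KO only, and Pcna in WT only. The plot of both effects shows these 6 at or left of the line of equal values. Some of these genes gained a call in the other genotype under another setting. Without WT at 22 °C number 2, Aurka, Kif4 and Plk1 were called lower in WT. Limma-voom called Aurka and Kif4 lower in WT and Pcna lower in KO, and upper-quartile scaling called Aurka lower in WT. Ccnb2 was called lower in WT without KO at 22 °C number 3 or WT at 30 °C number 1.

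Among centromere genes, Cenpf and Cenpe fell and Cenpa did not pass the test. Cenpf, an outer kinetochore protein, was at 0.00, 0.122, 0.334 and 0.356 CPM in KO at 22 °C, against 1.34, 0.717, 1.13 and 2.29 CPM in KO at 30 °C. In WT it was at 0.296, 0.304, 0.313 and 0.349 CPM at 22 °C, against 0.594, 1.55, 1.04 and 1.27 CPM at 30 °C. Its log2 fold change was -2.70 in KO (adjusted p = 0.00218) and -1.80 in WT (adjusted p = 0.0120). Cenpe, a kinesin that moves chromosomes to the spindle equator, fell by 2.71 in KO (adjusted p = 0.00895) and by 1.88 in WT (adjusted p = 0.0292) on the log2 scale. The WT call of Cenpe was lost without WT at 22 °C number 1, 2 or 3 or WT at 30 °C number 3 or 4 and with limma-voom (adjusted p = 0.0543), with adjusted p between 0.0109 and 0.0886 over all alternatives. Cenpa, the histone variant that marks centromeres, averaged 10.7 ± 1.48 CPM in KO at 22 °C and 11.4 ± 1.89 CPM in KO at 30 °C (SD, n = 4 each). In WT it averaged 11.8 ± 3.48 CPM at 22 °C and 11.3 ± 1.52 CPM at 30 °C. The groups overlapped, and its log2 fold change was -0.09 in KO (95% interval -0.47 to 0.30) and 0.05 in WT (-0.33 to 0.44).

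Of 8 kinesin and spindle protein genes, 6 were lower at 22 °C in KO and 5 in WT, beside 13.0% and 17.8% of all genes tested. Spag5 (astrin, a spindle protein; chromosome 11, 78301529 to 78322457, plus strand) was at 1.09, 1.29, 1.20 and 0.416 CPM in KO at 22 °C, against 5.93, 5.50, 7.78 and 8.17 CPM in KO at 30 °C. In WT it was at 0.887, 1.21, 0.938 and 0.988 CPM at 22 °C, against 6.597, 6.76, 8.46 and 10.3 CPM at 30 °C. The gap between temperatures exceeded the spread within any group. The log2 fold change was -2.77 in KO (SE 0.276, adjusted p = 1.27e-05) and -2.995 in WT (SE 0.275, adjusted p = 1.54e-06).

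Kif11 (Eg5, the motor that pushes spindle poles apart; chromosome 19, 37376403 to 37421859, plus strand) was at 0.885, 1.10, 0.869 and 0.891 CPM in KO at 22 °C, against 3.25, 2.21, 3.10 and 2.83 CPM in KO at 30 °C. In WT it was at 0.492, 0.531, 0.625 and 0.581 CPM at 22 °C, against 2.56, 2.75, 2.13 and 1.88 CPM at 30 °C. At 22 °C its KO libraries were all above its WT libraries. The temperature effect was -1.59 in KO (SE 0.197, adjusted p = 7.07e-05) and -2.05 in WT (SE 0.207, adjusted p = 3.56e-06) on the log2 scale.

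Tpx2, which activates Aurora A on the spindle, fell by 2.50 in KO (adjusted p = 0.000189) and by 1.76 in WT (adjusted p = 0.000998). Kif23, a motor of the midbody in cytokinesis, fell by 1.58 in KO (adjusted p = 0.00149) and by 1.24 in WT (adjusted p = 0.00472). Nusap1, which bundles spindle microtubules, fell by 1.60 in KO (adjusted p = 0.000922) and by 0.98 in WT (adjusted p = 0.0111). All 3 are log2 values, and none of these calls was lost in any alternative. Kif4, a chromosome-bound kinesin, had 8 counts in KO at 22 °C against 64 at 30 °C, and 22 counts in WT at 22 °C against 47 at 30 °C. It was called lower in KO (log2 fold change -2.90, adjusted p = 0.00139), with -0.98 in WT (adjusted p = 0.123). Kif4 shares 832 of its 5514 exon bases with Pdzd11 on the opposite strand, which held 7238 counts against 141. Pdzd11 had 0.11 in KO and 0.54 in WT, and what it adds to the Kif4 count was not tested. Kif2c, which depolymerises microtubules, had -1.63 in KO (adjusted p = 0.0657) and -1.18 in WT (adjusted p = 0.125), and Kif20a, a cytokinesis motor, had -0.40 and -0.35 (adjusted p = 0.304 and 0.350) in KO and WT. Kif20a shares 1271 of its 4338 exon bases with Cdc23 on the opposite strand, which held 7948 counts against 365. Cdc23 had -0.41 in KO and -0.32 in WT, and what it adds to the Kif20a count was not tested.

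**Figure D3:**
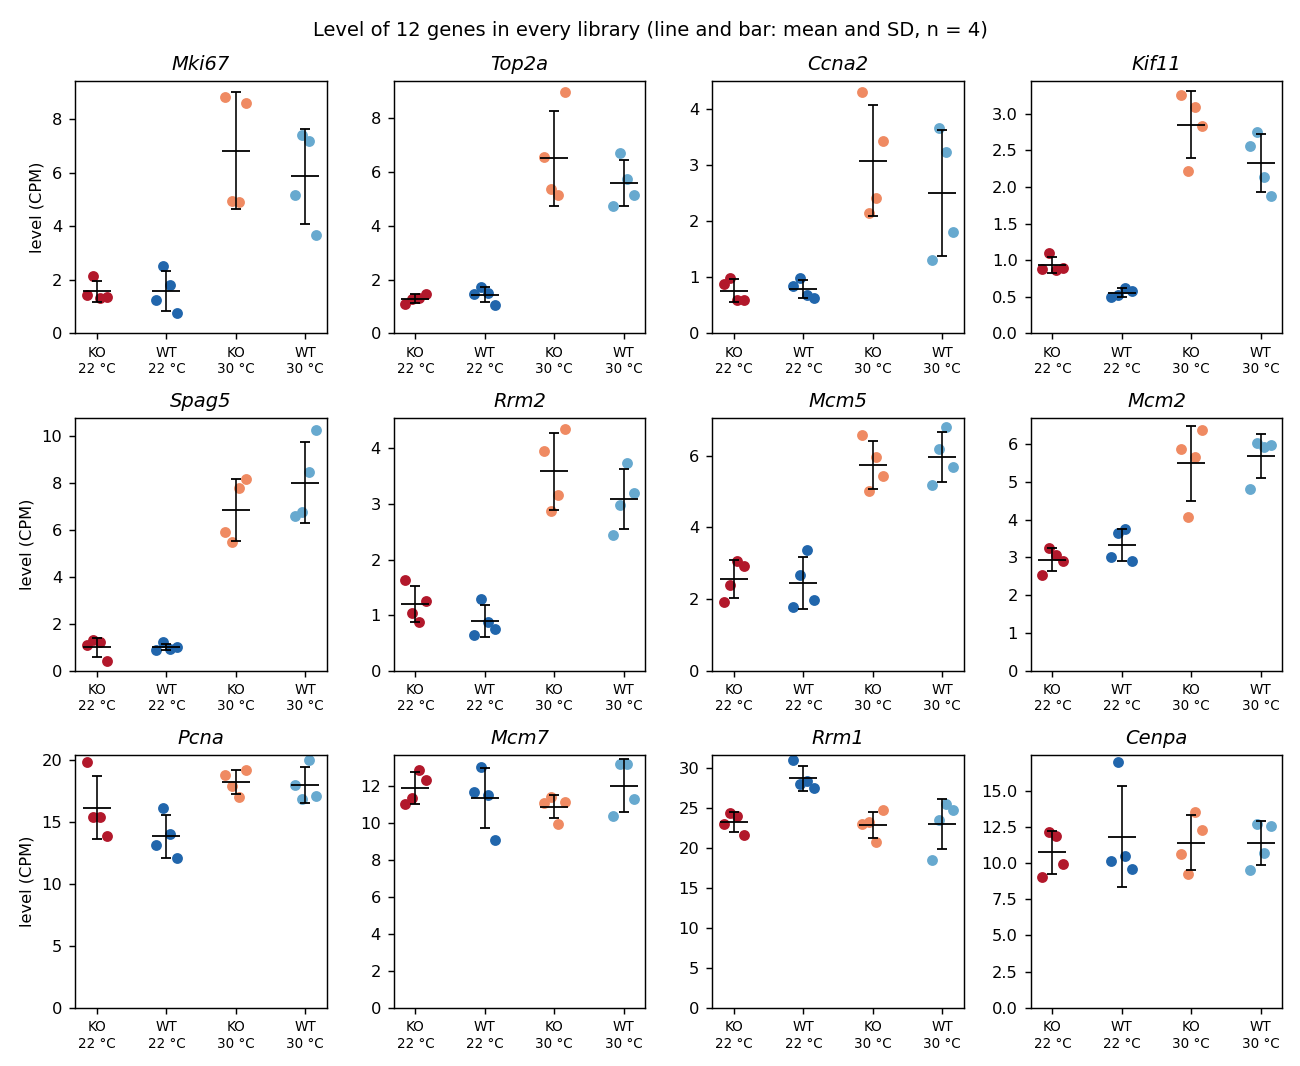
Level in CPM (vertical axis, from 0) of 12 genes in each library, in the order KO 22 °C, WT 22 °C, KO 30 °C and WT 30 °C, with the mean and SD of 4 libraries. The first 8 genes are lower at 22 °C in every library of either genotype, the WT libraries of Rrm1 at 22 °C lie above the other groups' (27.4 to 30.9 CPM), and the groups of Mcm7 and Cenpa overlap.

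Of 9 genes for replication licensing, the helicase and the clamp, 5 were lower at 22 °C in KO and 6 in WT, beside 13.0% and 17.8% of all genes tested, with median log2 fold changes of -0.75 and -0.51. Of the MCM helicase subunits, Mcm2, Mcm3, Mcm4, Mcm5 and Mcm6 were called lower in both genotypes and Mcm7 in neither. Mcm5 (chromosome 8, 75109569 to 75128439, plus strand) was at 1.91, 2.39, 3.07 and 2.91 CPM in KO at 22 °C, against 6.57, 5.02, 5.96 and 5.45 CPM in KO at 30 °C. In WT it was at 1.77, 2.66, 3.38 and 1.98 CPM at 22 °C, against 5.17, 6.19, 6.79 and 5.68 CPM at 30 °C. There was no overlap, and the log2 fold change was -1.16 in KO (SE 0.206, adjusted p = 0.000953) and -1.29 in WT (SE 0.206, adjusted p = 0.000189).

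Mcm6 averaged 4.42 ± 0.522 CPM in KO at 22 °C and 9.02 ± 1.22 CPM in KO at 30 °C, and 4.45 ± 0.818 CPM in WT at 22 °C and 8.32 ± 1.12 CPM in WT at 30 °C (SD, n = 4). Its log2 fold change was -1.03 in KO and -0.90 in WT. For Mcm2 the changes were -0.90 and -0.78, for Mcm3 -0.75 and -0.92, and for Mcm4 -0.75 and -0.51, in KO and WT in that order. The largest adjusted p of these was 0.0233, for Mcm4 in WT, and that call was lost without WT at 22 °C number 1 or 2 or WT at 30 °C number 2, with limma-voom (0.0514), in WT libraries alone (0.0643) and without the 4 libraries with skeletal muscle counts (0.0707; adjusted p between 0.000222 and 0.0742 over all alternatives).

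Mcm7 belongs to the same ring of 6 subunits as Mcm2 to Mcm6. It averaged 11.9 ± 0.860 CPM in KO at 22 °C and 10.9 ± 0.645 CPM in KO at 30 °C, and 11.4 ± 1.64 CPM in WT at 22 °C and 12.1 ± 1.43 CPM in WT at 30 °C (SD, n = 4). The log2 fold change was 0.13 in KO (95% interval -0.12 to 0.37) and -0.09 in WT (-0.33 to 0.16), so a fall as large as that of any other subunit lies outside these intervals. Its exons share 64 bases with Cops6 and 321 with Ap4m1 on the opposite strand, and those genes held 29781 and 4194 counts against 3009 for Mcm7. The strand setting of the counting is not given in the sources used here, and what these genes add to the Mcm7 count was not tested.

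Pcna, the sliding clamp, was the most abundant of the 40 genes per kilobase of exon (a mean of 6.89 CPM per kilobase over all libraries), ahead of Mcm7 (2.61) and Mcm4 (2.61), whereas Cenpf was the lowest (0.0486). Pcna was at 19.8, 15.4, 15.4 and 13.9 CPM in KO at 22 °C, against 18.8, 17.9, 16.99 and 19.2 CPM in KO at 30 °C. The first KO library at 22 °C, one with skeletal muscle counts, was the highest of the 8. In WT it was at 13.2, 16.2, 14.0 and 12.1 CPM at 22 °C, against 18.0, 16.8, 19.98 and 17.1 CPM at 30 °C, with no overlap. The log2 fold change was -0.18 in KO (adjusted p = 0.261) and -0.38 in WT (SE 0.113, adjusted p = 0.0153), and the WT call was lost without WT at 30 °C number 3 (adjusted p = 0.0571).

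The helicase activator gene Cdc45 and the loading factor gene Cdc6 were not called for temperature. Cdc45 had a log2 fold change of 0.23 in KO (adjusted p = 0.461) and of 0.42 in WT (adjusted p = 0.136). Cdc6 had -0.25 in KO (adjusted p = 0.636) and -0.23 in WT (adjusted p = 0.633). Cdc45 shares 209 exon bases with Ufd1 on the opposite strand, which held 19979 counts against 1676. Ufd1 had 0.08 in KO (adjusted p = 0.453) and 0.40 in WT (adjusted p = 0.000764), and what it adds to the Cdc45 count was not tested.

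Both subunits of ribonucleotide reductase, the enzyme that makes deoxynucleotides, were measured. Rrm2 encodes the small subunit, whose protein is made in S phase. It was at 1.63, 1.04, 0.869 and 1.25 CPM in KO at 22 °C, against 3.96, 2.87, 3.17 and 4.36 CPM in KO at 30 °C. In WT it was at 0.640, 1.29, 0.875 and 0.755 CPM at 22 °C, against 2.44, 2.98, 3.74 and 3.21 CPM at 30 °C. The temperatures did not overlap in either genotype, with a log2 fold change of -1.58 in KO (SE 0.2503, adjusted p = 0.000415) and of -1.81 in WT (SE 0.257, adjusted p = 6.82e-05).

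Rrm1 encodes the large subunit, which is more stable through the cycle (chromosome 7, 102441695 to 102469771, plus strand). It was at 23.0, 24.4, 23.99 and 21.6 CPM in KO at 22 °C, against 23.0, 23.2, 20.7 and 24.7 CPM in KO at 30 °C. In WT it was at 30.9, 27.9, 28.4 and 27.4 CPM at 22 °C, against 18.5, 23.4, 25.4 and 24.7 CPM at 30 °C, so every WT library at 22 °C was above every WT library at 30 °C. The log2 fold change was 0.02 in KO (95% interval -0.18 to 0.22) and 0.32 in WT (SE 0.0939, adjusted p = 0.0147). The WT call was lost with upper-quartile scaling, at 0.22 (adjusted p = 0.0775), a scaling that moved the median of all genes in that comparison to -0.13. It was also lost in a fit on the WT libraries alone (adjusted p = 0.0602), without the 4 libraries with skeletal muscle counts (adjusted p = 0.0527) and without WT at 22 °C number 1 (adjusted p = 0.05 after rounding).

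The other deoxynucleotide genes were not called. Tyms (thymidylate synthase) had log2 fold changes of 0.36 in KO and 0.30 in WT (adjusted p = 0.151 and 0.202), and Tk1 (thymidine kinase 1) had -0.47 and -0.61 (adjusted p = 0.290 and 0.140). Ezh2, the methyltransferase of histone H3 in Polycomb repression, had 0.17 in KO and 0.18 in WT (adjusted p = 0.392 and 0.332), with a mean of 12.01 ± 0.729 CPM in KO at 22 °C and 10.7 ± 2.25 CPM in KO at 30 °C (SD, n = 4).

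By role, the 20 genes with mitosis roles gave a median of 19.0% of the counts of the 40 genes in KO at 22 °C and 18.1% in WT at 22 °C, against 32.2% in KO at 30 °C and 30.1% in WT at 30 °C. The highest library at 22 °C had 24.7% and the lowest at 30 °C had 27.8%. The 13 replication and deoxynucleotide genes together had a median of 87.9 and 84.5 raw CPM at 22 °C in KO and WT, and of 115 and 119 raw CPM at 30 °C in KO and WT. Of the 11 genes called for temperature in neither genotype, 5 share exon bases with a protein-coding gene on the opposite strand, and in 4 of these the partner held more counts. Of the 27 called lower in KO or WT, 4 do so, and in 3 the partner held more counts. The part of these partners in the measured effects was not tested. The CHR letters stood in 14 of 23 promoters of genes called lower and in 3 of 9 of those called in neither genotype, and CCAAT in 21 of 23 and 4 of 9.

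The KO and WT libraries were then compared at each temperature, to ask whether the loss of Akt2 in brown adipocytes changed these genes. These comparisons use the same libraries as the temperature comparisons. At 22 °C, 3 of the 39 genes were lower in KO, beside 10.1% of all genes tested, a share near the background. By edgeR 0 were higher, beside 7.52% of all genes, with 1 higher and 5 lower at an unadjusted p under 0.05. DESeq2 called 2 lower, beside 13.1% of all genes, and limma-voom 1, beside 8.64%. Neither called any higher, beside 1283 and 787 of all 14103 genes in that order. The median log2 fold change (KO over WT) was -0.13, beside 0.02 over all genes.

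The 3 genes were Rrm1, Ccne1 and Bub1. Rrm1, whose levels per library are given above, had its highest KO library below its lowest WT library at 22 °C, as 9.78% of all genes tested did, with a log2 fold change of -0.30 (SE 0.0940, adjusted p = 0.0371). Ccne1, cyclin E1, was at 1.77, 1.71, 1.00 and 0.891 CPM in KO, against 2.46, 2.58, 4.25 and 1.74 CPM in WT, where the lowest WT library was just below the highest KO library. Its log2 fold change was -1.03 (SE 0.322, adjusted p = 0.0378). Bub1 had 3 counts in KO against 17 in WT, a ratio of 0.206 (exact 95% interval 0.0387 to 0.712, counting error only; adjusted p = 0.0462). None of the 3 calls held throughout. Without 1 library, Rrm1 lost its call in 5 of 16 fits (KO at 22 °C number 1, 3 or 4, WT at 22 °C number 1 or 3), Ccne1 in 4 (KO at 22 °C number 3 or 4, WT at 22 °C number 2 or 3) and Bub1 in 13 (all but those without WT at 22 °C number 1 or KO at 30 °C number 1 or 3). All 3 calls were lost with no filter on low counts and without the libraries with skeletal muscle counts. Rrm1 and Ccne1 also lost theirs in a fit on the 22 °C libraries alone, Rrm1 and Bub1 with limma-voom, and Bub1 with DESeq2. Bub1 was too scarce to be tested in the fit on the 22 °C libraries alone or with the stricter filter. At 30 °C it had 46 counts in KO and 40 in WT, and it could pass the main filter through those libraries. Over all alternatives that tested the gene, the adjusted p lay between 0.0112 and 0.122 for Rrm1, 0.0158 and 0.114 for Ccne1, and 0.0143 and 0.163 for Bub1.

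Kif11 was the only one of the 40 genes whose KO libraries at 22 °C all lay above the WT libraries, as those of 7.70% of all genes tested did. Its level averaged 0.936 ± 0.111 CPM in KO and 0.557 ± 0.0578 CPM in WT (SD, n = 4 each). The log2 fold change was 0.74 (SE 0.215, 95% interval 0.29 to 1.20), and it did not pass the test (adjusted p = 0.0570, between 0.0510 and 0.168 over all alternatives).

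At 30 °C, edgeR called 0 of the 39 genes lower and 0 higher in KO than in WT, and 0 passed an unadjusted p under 0.05. DESeq2 and limma-voom also called 0. Of all genes tested, 0.0142% were lower and 0.0284% higher. The KO and WT libraries separated without overlap for 0 of the 40 genes, beside 2.57% of all genes that were lower and 3.36% that were higher in every KO library. The 95% intervals were narrow for abundant genes, such as -0.21 to 0.19 for Rrm1 and -0.24 to 0.26 for Pcna, and wide for scarce ones, such as -0.35 to 1.61 for Cdk1 and -0.99 to 1.39 for Cenpe. The log2 fold change was above 0 for 26 genes and below 0 for 13, and at 22 °C it was below 0 for 26 and above 0 for 13.

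**Figure D4:**
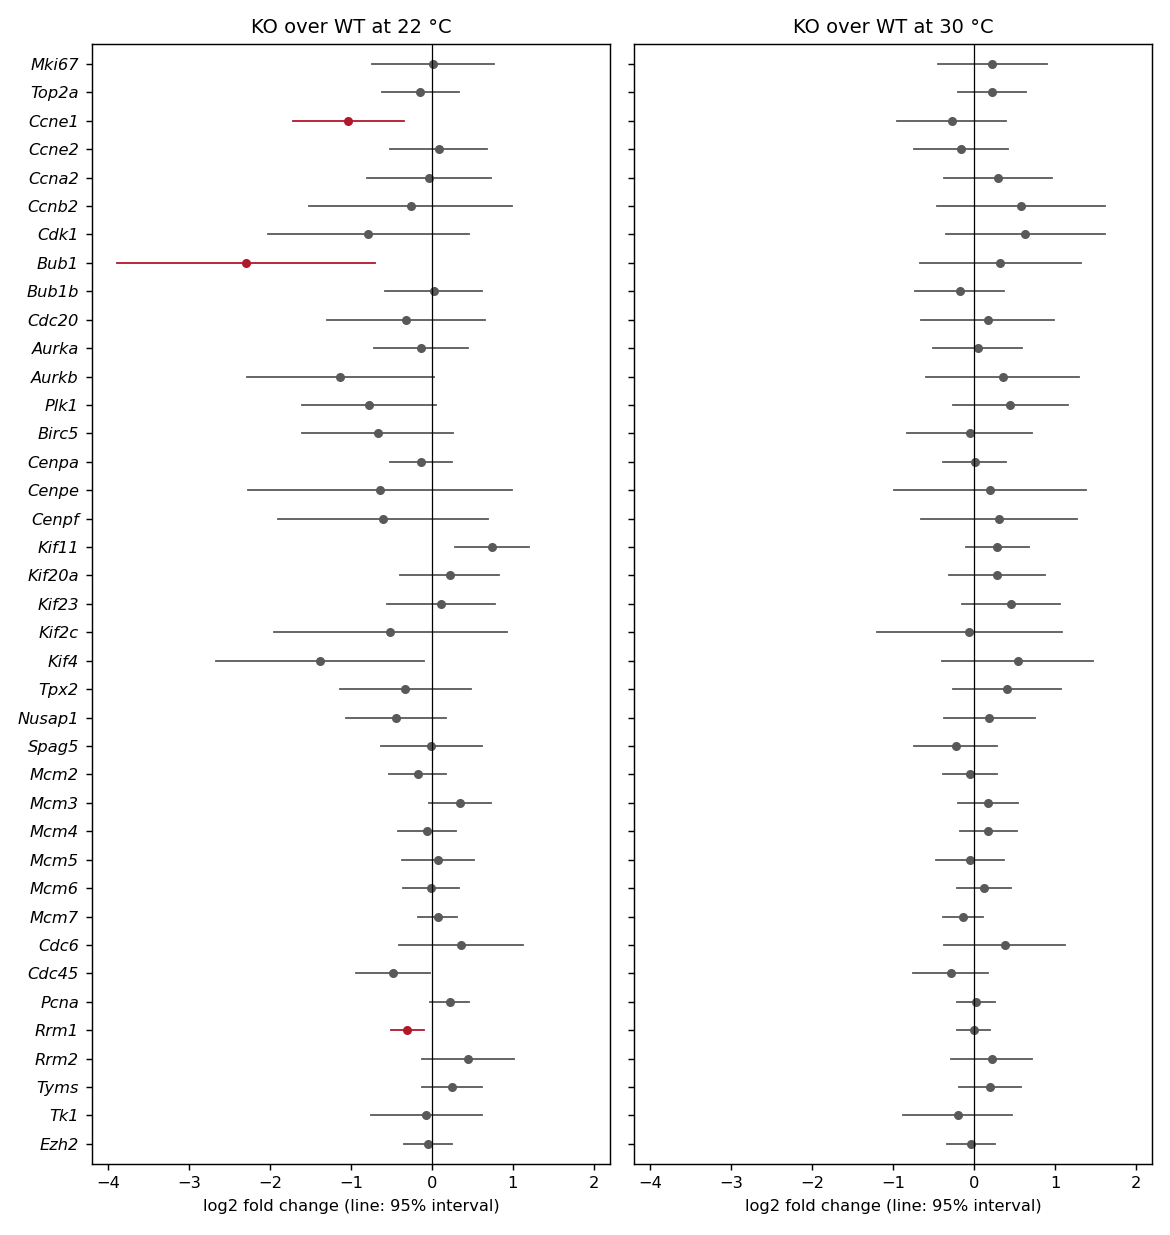
Log2 fold change of KO over WT (horizontal axis) with its 95% interval for the 39 genes tested (rows), at 22 °C on the left and at 30 °C on the right. The 3 genes called at 22 °C (Ccne1, Bub1 and Rrm1) are red, and at 30 °C every interval includes 0.

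Whether temperature acted differently in KO and WT was tested as an interaction, the KO effect at 22 °C minus that at 30 °C. By edgeR 0 of the 39 genes were called lower and 0 higher, where 2.39% of all genes tested were lower and 0.752% higher. DESeq2 and limma-voom called 0 as well. At an unadjusted p under 0.05 there were 4, each negative: Bub1 (log2 difference -2.62), Kif4 (-1.92), Plk1 (-1.22) and Rrm1 (-0.30), with adjusted p between 0.114 and 0.217. Pdzd11, which overlaps Kif4, had a difference of -0.43 (adjusted p = 0.0722). For Mki67 the difference was -0.20 (95% interval -1.22 to 0.81), for Top2a -0.37 (-0.999 to 0.27) and for Mcm5 0.13 (-0.48 to 0.75). The 6 genes called lower in KO only were therefore not shown to differ between the genotypes.

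Other genes of the same processes were read from lists of pathway members. Of 33 other mitosis genes tested, 30 were lower at 22 °C in KO and 22 in WT, beside 13.0% and 17.8% of all genes tested, with medians of -1.57 and -1.17. Examples were Nuf2, of the kinetochore (-2.86 in KO and -1.25 in WT), Racgap1, of cytokinesis (-1.79 and -1.28), and Espl1, the separase that cuts cohesin (-1.94 and -1.91). Scarce genes of this list could also pass the filter through the 30 °C libraries, and its median under the stricter filter was not taken. Ncapd2, a condensin subunit, had -0.93 in KO (adjusted p = 0.000126) and -0.22 in WT (adjusted p = 0.159), with a called interaction (-0.70, adjusted p = 0.0414). It was the only 1 of the 33 with a called interaction. Of all genes tested, 2.39% had a negative called interaction and 0.752% a positive one. Of 40 origin and fork genes tested, 17 were lower in KO, and 14 lower and 4 higher in WT (20.5% of all genes were higher), with medians of -0.42 and -0.21. Rpa1, which binds single-stranded DNA, fell by 0.71 in KO and 0.67 in WT, and Pold1, the catalytic subunit of DNA polymerase delta, fell by 0.81 and 0.63. Orc5, of the origin recognition complex, had -0.55 in KO (adjusted p = 0.000215) and -0.05 in WT (adjusted p = 0.658), with a called interaction (-0.50, adjusted p = 0.0283). It was the only 1 of the 40 origin and fork genes with a called interaction, beside the same shares of all genes.

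A list of 19 genes that control cycle entry and transcription holds activators as well as the repressors E2f7 and E2f8. Of these 19, 6 were lower and 1 higher in KO, beside 13.0% and 13.8% of all genes tested, and 8 were lower and 1 higher in WT, beside 17.8% and 20.5%. E2f8 is among the genes lower in KO and WT, and E2f7 among those lower in WT. Ccnd1, cyclin D1, which links growth signals to the cycle, fell by 1.16 in KO (SE 0.145, adjusted p = 7.63e-05) and by 1.49 in WT (SE 0.148, adjusted p = 3.15e-06) on the log2 scale, and at 22 °C it was higher in KO than in WT by 0.64 (adjusted p = 0.00953). Foxm1, a transcription factor of mitotic genes, fell by 1.58 in KO and 1.21 in WT, and Mybl2, its partner at CHR promoters, by 0.96 and 0.62. E2f1, an activator of S-phase genes, had -1.42 in KO (adjusted p = 0.00173) and -0.57 in WT (adjusted p = 0.101). E2f7, a repressor of the family, had 0.31 in KO (adjusted p = 0.401) and -1.21 in WT (adjusted p = 0.00236), with a called interaction of 1.52 (adjusted p = 0.0404). It was the only 1 of the 19 with a called interaction, beside 0.752% of all genes with a positive one and 2.39% with a negative one. Of 14 genes that restrain the cycle, 2 were lower and 2 higher in KO, beside 13.0% and 13.8% of all genes tested. In WT, 4 were lower and 2 higher, beside 17.8% and 20.5%. The CDK inhibitor gene Cdkn1a had 0.54 in KO and 0.09 in WT (adjusted p = 0.140 and 0.802).

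Some markers of cells that could carry these transcripts also moved with temperature. Of 15 macrophage markers, 11 were lower at 22 °C in KO and 12 in WT, beside 13.0% and 17.8% of all genes tested. Their summed level ranged from 151 to 182.5 raw CPM in KO at 22 °C and from 117 to 262 in WT at 22 °C, against 295 to 369 in KO at 30 °C and 276 to 432.5 in WT at 30 °C. The highest WT library at 22 °C was number 3. Of 12 endothelial markers, 5 were lower at 22 °C in KO and 8 in WT, beside the same 13.0% and 17.8%. Their sums were 1316 to 1529 raw CPM in KO and 972 to 1170 in WT at 22 °C. At 30 °C they were 1729 to 2044 in KO and 1808 to 1888 in WT. At 22 °C, 6 of the 12 were higher in KO than in WT, beside 7.52% of all genes tested. Of 10 stromal progenitor markers, 2 were lower in KO, and 6 lower and 1 higher in WT. Of all genes tested, 13.0% were lower in KO, and 17.8% were lower and 20.5% higher in WT. The stromal sums were 434 to 518 raw CPM in KO and 304 to 365 in WT at 22 °C. At 30 °C they were 544 to 638 in KO and 587 to 661 in WT. At 22 °C, 2 of the 10, Dcn and Lum, were higher in KO than in WT, beside 7.52% of all genes tested.

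Of 11 brown adipocyte markers, 2 were higher at 22 °C in KO and 5 in WT, beside 13.8% and 20.5% of all genes tested. At 22 °C, 3 of them, Lipe, Plin1 and Cebpa, were lower in KO than in WT, beside 10.1% of all genes. Of 9 lymphocyte markers tested, 2 were lower in WT and 0 in KO, beside 17.8% and 13.0% of all genes tested. The sums of all 11 on the list were at most 14.7 raw CPM in any library. No marker of these lists was at 0 in a whole group. The part of these cells in the differences of the cell cycle genes, between temperatures or genotypes, was not tested. The plot of list sums sets these lists beside the cell cycle genes.

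**Figure D5:**
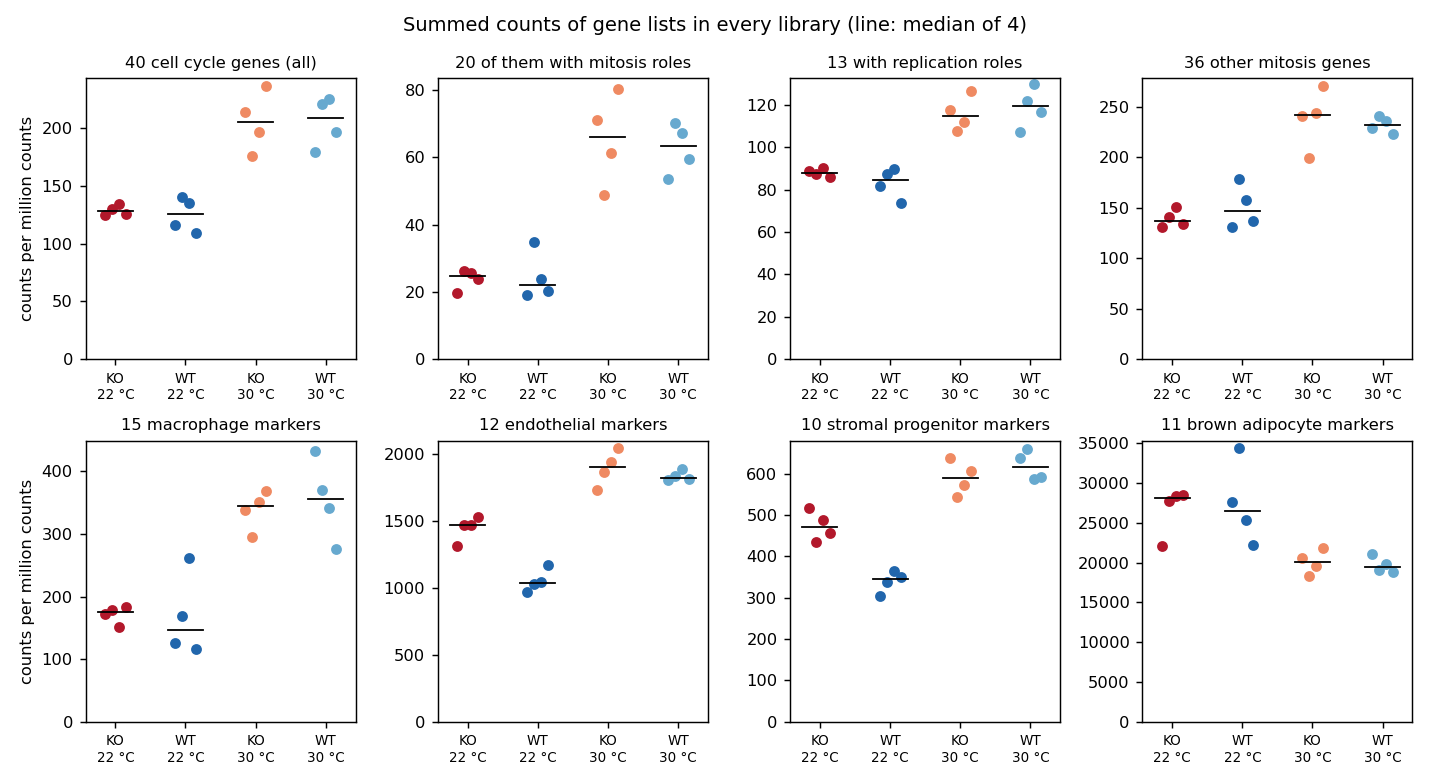
Summed raw CPM (vertical axis, from 0) of 8 gene lists in each library, in the order KO 22 °C, WT 22 °C, KO 30 °C and WT 30 °C, with the median of 4. The 40 cell cycle genes, their mitosis and replication classes, the other mitosis genes and the macrophage, endothelial and stromal lists are lower in every library at 22 °C than in any library at 30 °C of the same genotype, and the brown adipocyte list is higher at 22 °C. Raw CPM leaves out the TMM factors, which were 0.851 to 0.999 at 22 °C and 1.03 to 1.10 at 30 °C. With them, sums at 22 °C would rise and those at 30 °C fall. Whether the lists still separate with TMM scaling was not tested.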

How the data were processed

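RNA of interscapular brown fat was taken up in Qiazol, cleaned on RNeasy columns with DNase and made into standard Illumina libraries, per the labels' protocols. The values are raw read counts per Ensembl gene deposited by the authors in 1 table. The submitters' processing notes name FastQC 0.10.1, STAR 2.4.2a, edgeR 3.14.0, GRCm38 and mm10 without their roles. Which program, annotation and strand setting produced the counts is not stated in the labels or files. Library totals were 12751528 to 23866743 counts.

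Of 38924 identifiers, 37607 matched a symbol, and the other 1317 held at most 0.131% of a library's counts. Counts were filtered with filterByExpr (minimum count 10), which left 14103 genes, scaled by TMM and fitted over all 16 libraries with 1 mean per group, using edgeR 4.0.16's quasi-likelihood test (R 4.3.3) with Benjamini-Hochberg adjustment over all genes at 0.05. The typical biological coefficient of variation was 22.5%. DESeq2 1.42.0 and limma-voom (limma 3.58.1) were alternatives, beside other scalings and filters, a fit on the compared groups alone, a replicate block, added counts of same-named copies, and fits without 1 library or without those rich in muscle counts. Summed list levels are in raw CPM, relative to all counts of a library without TMM scaling. Exact intervals cover counting error only. Gene positions and exon lengths are from GENCODE on GRCm38.

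The 40 genes and the other lists were chosen with earlier results of these data known. Named were all 40 genes, Akt2, E2f1, Foxm1, Mybl2, Ccnd1 and Cdkn1a, and from the other lists up to 4 genes of smallest p per comparison and up to 3 of highest mean count, of which examples are printed. Libraries of 1 group differed from each other by more than sampling noise. The groups share replicate numbers, but the labels do not tie a number to a litter, batch or day, and deviations of same-numbered libraries correlated between -0.503 and 0.452, so the numbers were not taken to pair the libraries.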

Additional observations from a re-analysis of the deposited data

Results flagged for a closer look

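In 10 of 172 groups of 4 libraries, 1 library lay apart from the other 3 by Dixon's test at its 95% critical value, and chance marks about 1 in 20 groups. In KO at 22 °C, library 2 was high for Mki67 (2.14 CPM, the others 1.34 to 1.43), Birc5 (0.857 CPM, the others 0.201 to 0.297) and Kif11 (1.10 CPM, the others 0.869 to 0.891). Library 1 of that group was high for Cdc6 (2.52 CPM, the others 0.796 to 0.950) and held 0.00 CPM of Bub1 (the others 0.0594 to 0.0668). For Bub1 this is 0 counts against 1 count in each of the others. In WT at 22 °C, library 2 was high for Cenpa (17 CPM, the others 9.59 to 10.5) and Kif23 (1.75 CPM, the others 0.697 to 0.813). In KO at 30 °C, library 1 was low for Tyms (3.60 CPM, the others 4.36 to 4.45). In WT at 30 °C, library 1 was low for Ccne1 (1.43 CPM, the others 2.41 to 2.59) and Mcm2 (4.81 CPM, the others 5.93 to 6.02).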

How the results depend on the processing

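Over 26 other settings, 4840 of 4936 values for single genes stayed on the same side of the threshold, 76 lost a call and 20 gained one. Of values called in either fit, 0 reversed direction. Changes of direction in genes called in neither fit were not counted. In KO, 16 genes were lower at 22 °C with a stricter filter, which tested 28 of them, beside 14% of all genes. Limma-voom called 30 lower, beside 21.2% of all genes, and 1 higher, beside 3079 of all 14103. The KO median log2 fold change was -0.79 with the stricter filter, -1.32 with limma-voom and -1.10 in a fit on KO libraries alone, which tested 34. Without 1 library it lay between -1.60 and -1.29, with 25 to 27 genes lower, beside 9.6% to 15.1% of all genes. In WT, 0 genes were higher with upper-quartile scaling, in WT libraries alone or without muscle-bearing libraries. Of all genes, 2196 of 14103, 2341 of 13419 and 2464 of 14397 were higher in those settings, in that order. Without 1 library, 0 to 2 genes were higher, beside 2486 to 3018 of all genes, and 17 to 23 lower, beside 14% to 20.4%. The WT median was -0.72 with the stricter filter and lay between -1.09 and -0.89 without 1 library. For KO against WT at 22 °C, 0 genes were lower with no filter, with the replicate block or without muscle-bearing libraries. In those groups alone, which tested 28 of the genes and not Bub1, 0 were lower as well. Limma-voom called 1 lower, and 0 to 4 were lower without 1 library. Of all genes, 3.35% to 12.3% were lower in these fits. Where fewer genes or libraries were not the cause by construction, the cause was not tested. With the replicate block, 25 genes were lower at 22 °C in KO, beside 12.1% of all genes. In WT, 20 were lower, beside 17.3%, and 1 higher, beside 2728 of all 14103. Lost with the block were the calls of Cdk1 in WT (adjusted p = 0.0619) and Aurka in KO (0.0643) for temperature, and of Rrm1 (0.0658), Ccne1 (0.0725) and Bub1 (0.0809) for KO against WT at 22 °C. Ccnb1, Bub1 and Kif4 had 4, 3 and 8 counts in KO at 22 °C, and their exact intervals are wide.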
